A study of Mus musculus with 22 samples.

Results

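Open chromatin of mouse liver tissue 64 days after the oncogene YAP1 was switched off in hepatoblastoma was compared here with open chromatin of normal liver, gene by gene. The members are 2 interval lists, 1 library each, out of 5 such lists and 22 samples in the series. They were chosen by their labels: one list is labelled Yap Off D64 and the other is a liver labelled WT, and both give liver as their source. The labels of the lists name no genotype, strain, age or sex. The design text calls the tissue without YAP1 hb Heps, hepatocyte-like cells that arise from the tumor, and names mouse strains carrying the CAG-rtTA3 transgene, a doxycycline-responsive transactivator driven by a broadly active promoter, without saying which served each list. RNA libraries of other mice are set beside the lists. They are 3 hbHep mice at days 114, 117 and 121, each sequenced as 2 technical libraries that were averaged, and 3 livers of FAH mice kept on NTBC. Both RNA groups carry the FAH Delta Exon 5 deletion, which removes the last enzyme of tyrosine breakdown, and NTBC blocks an earlier step of that pathway. The liver of the interval lists is labelled WT, the RNA livers carry WT in their titles beside the FAH deletion, and the hbHep RNA was taken later than day 64. The pair of readouts thus comes from different samples and times, and the labels do not show whether the genotypes match. With 1 library a group, no difference in open chromatin has a replicate check, and none was tested.

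Hepatocytes differ along the path of blood through the liver lobule. Those near the portal vein make urea and glucose, and those near the central vein make glutamine and carry out much of drug and bile acid metabolism. Wnt ligands from endothelial cells of the central vein keep beta-catenin active in pericentral hepatocytes, where beta-catenin with TCF and LEF factors switches on pericentral genes and its own feedback inhibitors, while periportal genes are held down. Mutations that activate beta-catenin are frequent in human hepatoblastoma. In Omni-ATAC a transposase inserts sequencing adapters into DNA of isolated nuclei where it is not packed into nucleosomes, so cut sites cluster at promoters, enhancers and the bodies of some highly active genes.

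The day 64 list held 769500 intervals, which merged into 671277 regions covering 55.8 Mb. The liver list held 571520 intervals, which merged into 513917 regions covering 36.7 Mb. Within 100 bases of gene starts 43.3% of bases were covered at day 64 and 40.6% in liver, and 5 kb off the starts 4.68% and 2.82%. Both lists therefore mark start sites, and day 64 has more covered bases between them. For each gene the covered bases were counted in its body with 10 kb on each side, divided by the mean of that library over all genes (1778 bases at day 64 and 1187 in liver), and the ratio was taken as log2 of day 64 over liver after adding 0.1 to both. The windows of hepatocyte genes were covered in both lists: the window of Alb (albumin) was covered over 47.9% at day 64 and 35.6% in liver, and that of Hnf4a, a transcription factor of hepatocytes, over 35.0% and 25.2%. The 20 neuron genes used as a negative list had medians of 0.332% and 0.168% (14 of them counted, median log2 ratio -0.02). Both lists thus carry the labelled tissue's markers. Tissue was used whole, so fewer cells of a type and less accessibility per cell cannot be told apart.

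Bases before a RefSeq start site of 4 genes on which the results turn are printed here because they let a reader see where the intervals lie. Each is 250 bases long (build GRCm38.p6, which has the coordinates of mm10), 5′ to 3′ on the plus strand, which is the strand of each of these genes, and capitals mark bases inside an interval of the named library. They were chosen after their values were seen. Nkd1, a cytoplasmic inhibitor of Wnt signaling that Wnt itself induces, is shown at chr8:88527383-88527632, and 139 of the bases were covered at day 64 and 0 in liver. This start site lies inside the gene as annotated, which begins at base 88521342. At that 5′ end liver was covered too: in the last 1 kb before it 77.8% of bases were covered at day 64 and 18.2% in liver, and in the first 1 kb after it 81.7% and 45.1%. Lef1, a partner of beta-catenin on DNA, is at chr3:131110047-131110296, with 172 and 31 bases covered. Sp5, a zinc finger factor induced by Wnt, is at chr2:70474673-70474922, with 206 and 16. Ass1, argininosuccinate synthase of the urea cycle, is at chr2:31470020-31470269, with 194 and 181, of which 160 were shared.
Nkd1, day 64: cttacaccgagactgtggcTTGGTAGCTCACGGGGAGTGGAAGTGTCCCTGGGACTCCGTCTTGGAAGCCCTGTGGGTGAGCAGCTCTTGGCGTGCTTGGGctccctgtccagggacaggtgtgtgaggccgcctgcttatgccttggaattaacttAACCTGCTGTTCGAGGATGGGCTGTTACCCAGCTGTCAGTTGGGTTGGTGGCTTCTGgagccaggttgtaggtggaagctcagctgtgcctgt
Lef1, day 64: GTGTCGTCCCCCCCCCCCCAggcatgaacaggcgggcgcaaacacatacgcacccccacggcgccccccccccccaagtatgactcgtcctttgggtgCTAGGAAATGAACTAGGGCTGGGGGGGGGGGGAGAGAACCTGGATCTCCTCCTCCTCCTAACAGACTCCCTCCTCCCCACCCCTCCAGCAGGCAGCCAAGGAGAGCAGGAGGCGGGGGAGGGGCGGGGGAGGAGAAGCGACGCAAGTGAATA
Lef1, liver: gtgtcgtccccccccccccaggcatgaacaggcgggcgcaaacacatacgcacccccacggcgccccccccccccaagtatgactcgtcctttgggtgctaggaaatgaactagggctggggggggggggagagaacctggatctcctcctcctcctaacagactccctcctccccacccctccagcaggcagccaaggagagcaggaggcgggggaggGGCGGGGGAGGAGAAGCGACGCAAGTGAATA
Sp5, day 64: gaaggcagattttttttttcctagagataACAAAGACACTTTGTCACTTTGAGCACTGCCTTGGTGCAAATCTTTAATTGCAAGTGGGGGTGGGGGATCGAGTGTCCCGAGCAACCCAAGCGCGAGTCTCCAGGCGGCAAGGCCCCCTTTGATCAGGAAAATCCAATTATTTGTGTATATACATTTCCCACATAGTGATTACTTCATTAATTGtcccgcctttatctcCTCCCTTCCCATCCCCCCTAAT
Sp5, liver: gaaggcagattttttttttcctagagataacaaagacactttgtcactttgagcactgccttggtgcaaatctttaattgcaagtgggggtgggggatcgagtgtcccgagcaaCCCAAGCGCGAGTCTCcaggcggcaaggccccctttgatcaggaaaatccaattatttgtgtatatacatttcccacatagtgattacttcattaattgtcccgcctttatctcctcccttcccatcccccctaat
Ass1, day 64: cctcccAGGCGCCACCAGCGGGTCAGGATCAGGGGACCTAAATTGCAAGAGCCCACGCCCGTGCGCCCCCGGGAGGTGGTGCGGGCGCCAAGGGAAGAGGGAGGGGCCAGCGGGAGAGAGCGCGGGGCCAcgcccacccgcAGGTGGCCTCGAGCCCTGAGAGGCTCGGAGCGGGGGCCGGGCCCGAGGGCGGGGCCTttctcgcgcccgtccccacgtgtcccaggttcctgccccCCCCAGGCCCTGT
Ass1, liver: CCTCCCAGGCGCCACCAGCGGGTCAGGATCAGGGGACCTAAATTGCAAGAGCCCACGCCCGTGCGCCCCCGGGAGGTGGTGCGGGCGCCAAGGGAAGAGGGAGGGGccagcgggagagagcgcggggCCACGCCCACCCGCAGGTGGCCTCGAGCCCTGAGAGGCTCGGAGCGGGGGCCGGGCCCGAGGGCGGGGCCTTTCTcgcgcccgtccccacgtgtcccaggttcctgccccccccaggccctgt

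The Lef1 and Sp5 stretches covered in liver lay inside those covered at day 64. A search for TTTGATC, a site bound by TCF7L2 and LEF1, on both strands found it in the Sp5 stretch, 103 bases before the start, in a part covered at day 64 and not in liver, and in none of the other 3. This motif was in 2.59% of 27025 RefSeq promoters of 300 bases, in 1.85% of the 486 promoters of genes at least 2-fold more open at day 64 and in 2.88% of the 313 of genes at least 2-fold less open. In the promoters of the pericentral list it was in 2 of 16 (Lect2 and Sp5), and in those of the periportal list in 2 of 14 (G6pc and Nags). CAAAGTCCA, a site bound by HNF4A, was in 0.474% of all promoters, in 1.85% of those more open and in 0.958% of those less open, and in none of either list. The motifs TTGCGCAA (CEBP) and GGAATG (TEAD) were in 0.189% and 14.7% of all promoters and in 0% and 16.3% of those more open. The HNF4A letters begin with CAAA, which also ends the reverse complement of TTTGATC, so these motifs can share bases. Such matches describe letters in a short window only.

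Of 49943 annotated genes, 24972 had a mean scaled coverage at or above the median of all genes and were counted. Among them 830 were at least 2-fold more open at day 64 (3.32%), in 595 sets of overlapping windows, and 488 at least 2-fold less open (1.95%), in 360 sets. At 4-fold, 140 were more open (0.561%) and 26 less open (0.104%). Of 15301 protein-coding genes counted, 391 were at least 2-fold more open (2.56%) and 250 less open (1.63%). The median log2 ratio was -0.06, with the middle of the distribution between -0.30 and 0.22 at the quartiles, so most genes lay well within 2-fold. An interval near a start was seldom present in 1 list alone. Of 17274 protein-coding genes with a known start, 66.6% had an interval within 1 kb at day 64 and 66.3% in liver. Of these genes 11087 had an interval in both, 409 at day 64 alone and 365 in liver alone. By covered bases within 1 kb, 5.07% of 16735 starts were at least 2-fold more open at day 64 and 2.11% less open. Merged regions were shared less evenly, since 59.2% of those at day 64 touched a liver region and 80.5% of those in liver touched a day 64 region. The liver list is the shorter, and the part of its length in this gap was not tested.

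**Figure D1:**
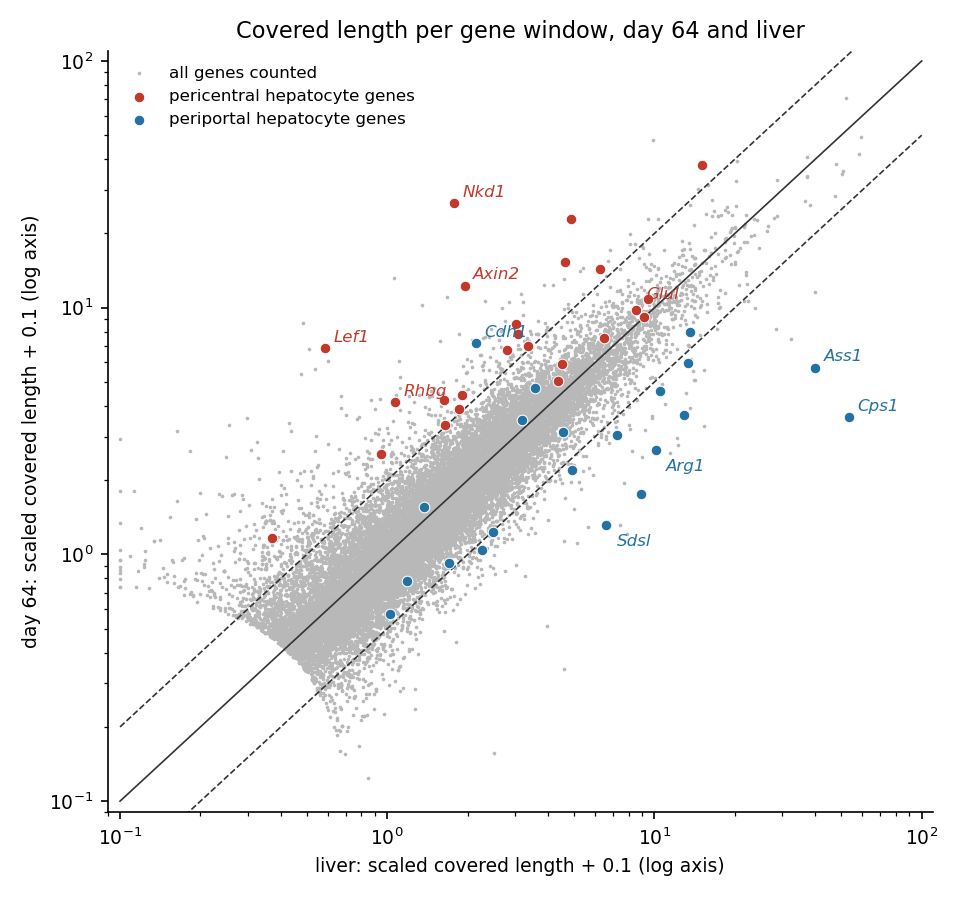
Each point is a gene counted, with its scaled covered length plus 0.1 in liver (x, log axis) and at day 64 (y, log axis), the solid line marking equal values and the dashed lines 2-fold. The pericentral and Wnt target genes (red) lie on or above the solid line and most of the periportal genes (blue) below it. Nkd1 (26.5 at day 64, 1.68 in liver) and Cps1 (3.50 and 53.5) are among the farthest.

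The 24 pericentral and Wnt target genes were all counted, 18 were at least 2-fold more open at day 64 and none less open, with a median log2 ratio of 1.29 against -0.06 over all genes counted. In RNA, 19 of the 24 were higher in hbHep and 1 lower (limma, Benjamini-Hochberg adjusted p under 0.05), beside 20% of 17958 genes tested that were higher and 17% lower. Of these 24 genes, 16 were both at least 2-fold more open and higher in RNA. The list, called the pericentral list throughout, joins Wnt feedback and target genes with pericentral enzymes and transporters. No median was taken for either part alone. The list and its parts were chosen with earlier results of these RNA data known, so the count describes the list and is no independent evidence of its direction.

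Among the feedback inhibitors of the Wnt pathway, the log2 ratio ran from 1.03 (Notum) to 3.90 (Nkd1). The window of Nkd1 (chromosome 8, 88521342 to 88594887) was covered over 50.5% at day 64 (47206 bases) and 2.13% in liver (1993 bases), a scaled difference of 15-fold. Of its 94 bins of 1 kb, 52 were covered over at least 50% of their length at day 64 and 0 in liver, so the open stretch ran over the body of the gene and not its start alone. Its RNA abundance was 13060, 2926 and 12920 in the 3 hbHep mice and 269.7, 235.2 and 305.2 in the 3 FAH livers (log2 fold change 4.87, SE 0.43, limma adjusted p = 7.85e-07).

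Axin2, a scaffold of the complex that destroys beta-catenin, was covered over 41.1% at day 64 and 4.15% in liver (log2 ratio 2.66). In 27 of its 53 bins at least 50% was covered at day 64, and in 1 bin in liver. Its RNA was 958.6, 1236 and 1232 in hbHep and 79.38, 82.99 and 92.13 in FAH liver (log2 fold change 3.73, SE 0.13, limma adjusted p = 1.04e-10). Rnf43 and Znrf3 encode ubiquitin ligases that remove Wnt receptors from the cell surface. Rnf43 was covered over 43.9% at day 64 and 6.12% in liver (log2 ratio 2.24), and Znrf3 over 7.26% and 1.88% (1.34). Notum, an enzyme that inactivates Wnt ligands, was nearest to the 2-fold line of these genes, at 21.1% and 6.71% (1.03). In RNA the 3 genes were higher in hbHep, by 3.67-fold for Rnf43, 3.97-fold for Znrf3 and 3.15-fold for Notum.

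Factors and receptors of the pathway were also more open at day 64. Lef1 was covered over 8.94% at day 64 and 0.43% in liver (log2 ratio 3.54), and 9 of its 135 bins reached 50% at day 64 against 0 in liver. Its RNA was 371.5, 339.2 and 465.3 in hbHep and 30.41, 32.86 and 21.91 in FAH liver (log2 fold change 3.75, SE 0.23, limma adjusted p = 1.88e-08). Sp5 was covered over 19.1% and 4.41% (1.43), with RNA at 703.3, 722.4 and 998.2 against 59.57, 53.64 and 40.75. Lgr5, a receptor for R-spondins that raise Wnt signaling, was covered over 4.66% and 1.15% (1.37), and Tnfrsf19 over 14.6% and 3.38% (1.5). Tbx3, a repressor and beta-catenin target in liver tumors, was covered over 35.8% and 11.4% (1.05), and its RNA was 5.68-fold higher in hbHep. The niche ligands, added after their values were seen, went the other way in scaled open chromatin. Wnt2 was at a log2 ratio of -0.91 from 904 bases at day 64 and 1238 in liver, Wnt9b at -0.41 from 1836 and 1668 bases, and Rspo3 at -1.90 from 221 and 874 bases. The mean gene held 1778 covered bases at day 64 and 1187 in liver. Rspo3 was below this mean in both libraries, Wnt2 at day 64 only, and Wnt9b in neither. The covered shares of these windows were low, at 1.34% and 1.84% for Wnt2, 2.7% and 2.46% for Wnt9b, and 0.215% and 0.851% for Rspo3. For comparison, the endothelial marker list had a median log2 ratio of -0.42, close to that of Wnt9b. Wnt9b RNA was lower in hbHep (log2 fold change -1.26, limma adjusted p = 0.0248). RNA of Wnt2 and Rspo3 did not pass the test (adjusted p = 0.166 and 0.362).

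Pericentral enzymes and transporters ranged from genes near equal scaled cover to genes past 2-fold. Covered bases cannot exceed the window, and day 64 was divided by the larger mean (1778 against 1187 bases). Windows widely covered in liver, such as those of Glul and Cyp2e1, therefore could not reach 2-fold upward. Glul, glutamine synthetase, was covered over 57.9% at day 64 and 33.6% in liver, a log2 ratio of 0.20 after scaling. Its RNA was 78870, 39840 and 72330 in hbHep and 5851, 4310 and 4520 in FAH liver, 12.6-fold higher (log2 fold change 3.65, SE 0.35, limma adjusted p = 1.45e-06). Oat, ornithine aminotransferase, had a log2 ratio of 0.19 (48.9% and 28.6%) beside RNA 27.4-fold higher. Cyp2e1 (0.01) and Cyp2a5 (0.22), which oxidize ethanol and nicotine, were covered over 34.4% and 27.0% in liver, and their RNA did not pass the test (adjusted p = 0.595 and 0.616). Several genes less covered in liver had larger ratios. Rhbg, an ammonium transporter, was covered over 22.5% at day 64 and 3.62% in liver (1.95), with RNA at 15270, 9974 and 10180 in hbHep and 559.2, 423.3 and 514.1 in FAH liver. Slc1a2, a glutamate transporter, was covered over 43.8% and 11.7% (1.32), Gulo, the last enzyme of vitamin C synthesis, over 59.7% and 17.2% (1.20), and Cyp1a2 over 44.0% and 12% (1.26). Their RNA was 14.8-fold, 6.30-fold and 3.38-fold higher in hbHep. Lect2, a secreted protein of hepatocytes, was covered over 19.7% and 5.50% (1.22), with RNA higher in hbHep (log2 fold change 2.37). Also less covered in liver, but within 2-fold, were Slc13a3, a dicarboxylate transporter, at 0.40 (11.8% and 5.93%) with higher RNA (3.22), and Cyp27a1, a bile acid enzyme, at 0.22 (19.7% and 11.3%) with RNA that did not pass the test (adjusted p = 0.223). Cyp7a1, the rate-limiting enzyme of bile acid synthesis, was at 1.07 (22.4% and 6.93%) with RNA that did not pass the test (adjusted p = 0.166). Cyp2c29 was the exception of the list: it was more open (1.66) from 3.00% and 0.506%, and its RNA was lower in hbHep (log2 fold change -1.5, adjusted p = 0.0121), in a family whose members share reads.

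The ratio of Glul did not carry the neighbourhood of the gene. Among the 12 protein-coding genes with the highest ratios, at most 1 for each set of overlapping windows, were Teddm1b (4.00) and Teddm2 (3.59), which lie 23.1 and 48.7 kb before Glul. From 40 to 50 kb before Glul, 46.2% of bases were covered at day 64 and 0.52% in liver, and from 30 to 40 kb before it 32.5% and 2.36%. The same 2 blocks were covered over 4.34% and 15.8% at day 14 and over 23.6% and 24.7% at day 33. Over the first 10 kb of Glul itself the shares were 86.2% at day 64 and 66.3% in liver. The blocks between 60 and 80 kb before the gene held at most 0.94% at any of the 4 lists, so the added open bases had an edge. RNA of Teddm2 was also higher in hbHep, at 642.9, 451.7 and 678.7 against 72.02, 79.86 and 114.9.

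All 21 periportal genes were counted. At day 64, 12 were at least 2-fold less open and 1 more open, with a median log2 ratio of -1.11. In RNA 18 of the 21 were lower in hbHep and none higher, beside 17% lower and 20% higher of all 17958 genes tested. All 12 of the less open genes were among the 18. As above, the list was chosen with these RNA results known.

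The urea cycle genes led. Cps1 (chromosome 1, 67122426 to 67231267), carbamoyl phosphate synthetase, which fixes ammonia as the first step of the cycle, was covered over 4.83% at day 64 (6222 bases) and 49.3% in liver (63531 bases), a scaled difference of 14.9-fold. This was the lowest ratio of all protein-coding genes counted (-3.90). Of its 129 bins, 71 were covered over at least 50% in liver and 1 at day 64. Its RNA was 35760, 70250 and 60580 in hbHep and 291400, 277300 and 287500 in FAH liver (log2 fold change -2.42, SE 0.35, limma adjusted p = 6.76e-05), so the message was lower but far from absent. Ass1, which joins citrulline and aspartate, was covered over 14.2% and 67.1% (-2.80), and 58 of its 71 bins reached 50% in liver against 7 at day 64. The bases just upstream of its start, printed above, were covered in both. Its RNA differed less than its gene body, at 14460, 19100 and 16220 in hbHep and 34020, 29190 and 29160 in FAH liver (log2 fold change -0.90 with SE 0.17, or 1.86-fold, limma adjusted p = 0.000781).

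In open chromatin, the other steps of the cycle were less apart. In RNA, Arg1 and Otc were farther apart than Cps1, which was 5.34-fold lower. Asl, which releases arginine, was covered over 19.2% and 45.7% (-1.81), with RNA 3.23-fold lower. Arg1, which splits arginine into urea and ornithine, was covered over 14% and 36.9% (-1.94). Its RNA was 1795, 2482 and 3990 in hbHep and 38500, 26960 and 27620 in FAH liver, 11.7-fold lower, with technical libraries of 1 mouse up to 3.65-fold apart. Otc, which makes citrulline, was covered over 2.27% and 3.19% (-1.02) with RNA 8.62-fold lower. Nags, which makes the activator of Cps1, was not lower in either readout: it was covered over 34.1% and 17.2% (0.40), and its RNA had an adjusted p of 0.205.

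Among other periportal genes, Sds and Sdsl, neighbours that code for serine dehydratase and a relative of it and whose windows overlap, had log2 ratios of -2.34 and -2.33. Sds was covered over 10.8% and 38.1%, and its RNA was 1090, 410.4 and 1756 in hbHep and 12150, 9254 and 12120 in FAH liver, though 2 technical libraries of an hbHep mouse differed 4.93-fold. Gls2, liver glutaminase (-1.25), G6pc and Pck1 of gluconeogenesis (-1.20 and -1.16) and Cyp2f2 (-1.17) were just past 2-fold, as was Etnppl (-1.11), which breaks down phosphoethanolamine and was covered over 4.38% and 6.69%. The genes within 2-fold were Ctsc (-0.87), Aldh1b1 (-0.84), Tat (-0.77), Hsd17b6 (-0.61), Hal (-0.54), Pigr (0.14), Hsd17b13 (0.17) and Nags. The RNA of Hsd17b6 and Hal was the lowest of these against FAH liver, with log2 fold changes of -4.48 and -3.78. Cdh1, E-cadherin, was the 1 gene more open at day 64 (14.5% and 2.80%, log2 ratio 1.74), and its RNA did not pass the test (adjusted p = 0.431).

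**Figure D2:**
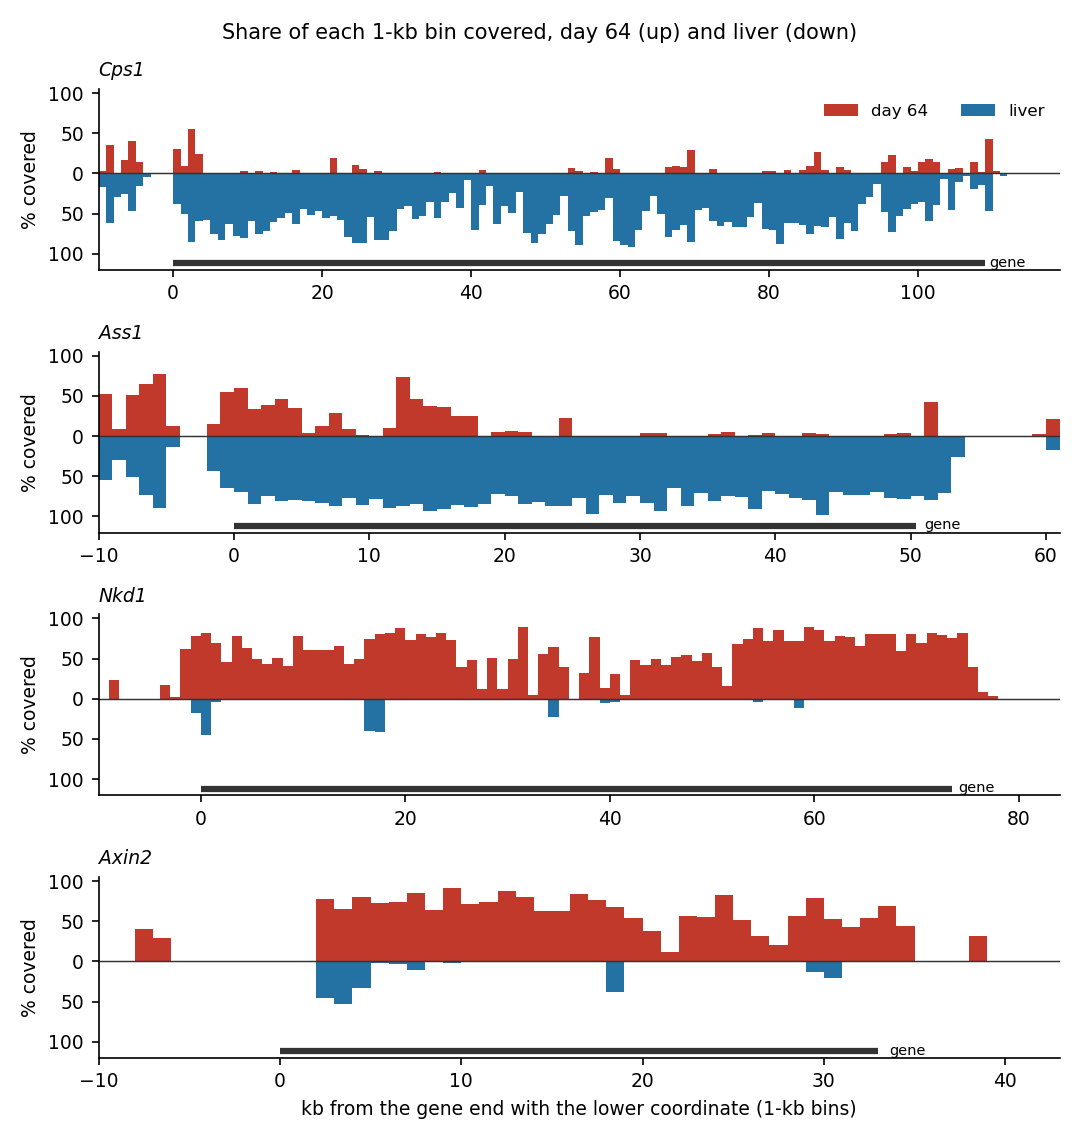
Bars give the share of each 1-kb bin covered by intervals at day 64 (red, upward) and in liver (blue, downward), with the black line marking the gene and the x axis in kb from the gene end of lower coordinate. Cps1 and Ass1 are covered along most of their bodies in liver (71 and 58 bins at 50% or more) and in few bins at day 64 (1 and 7), and Nkd1 and Axin2 the other way round (52 and 27 bins at day 64, 0 and 1 in liver).

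The lists of days 14 and 33 give earlier values for the same windows. All 3 ratios divide by the same liver library, so they are not independent. The pericentral list had a median log2 ratio of 0.27 at day 14, 0.95 at day 33 and 1.29 at day 64, and the periportal list -0.77, -0.59 and -1.11. Cps1 was covered over 71.7% at day 14, 47.8% at day 33 and 4.83% at day 64, and Ass1 over 76.6%, 68.9% and 14.2%. The lists differ in total length, and after scaling the log2 ratio to liver was -0.43, -0.67 and -3.90 for Cps1 and -0.77, -0.59 and -2.80 for Ass1. Not all periportal genes changed as late. Sds was at -2.14, -1.62 and -2.34, Sdsl at -2.15, -1.89 and -2.33, and Arg1 at -1.21, -1.3 and -1.94. Asl was at -0.68, -1.1 and -1.81. Nkd1 was covered over 2.91%, 5.76% and 50.5%, and Rnf43 over 18%, 19.2% and 43.9%. Each day is 1 library, so a day and the animal it came from cannot be told apart.

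**Figure D3:**
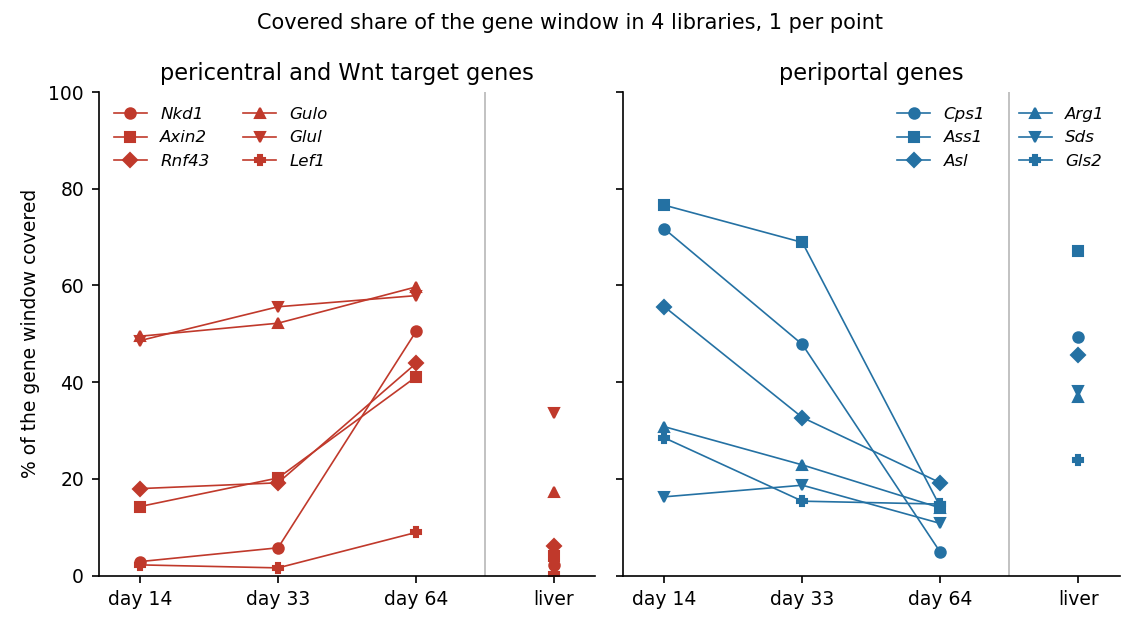
Points give the percent of the gene window covered (body and 10 kb on each side) in the lists of days 14, 33 and 64, joined by lines, and in liver, 1 library each. Nkd1 and Cps1 have day 64 values far from both earlier lists (50.5% and 4.83%).

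For the pericentral and periportal lists, the difference was larger in the rest of the window than at start sites. The windows of genes with a known start were divided into the 1 kb on each side of the start and the rest. Of 16735 such genes counted, 5.07% were at least 2-fold more open at the start and 2.11% less open, and in the rest of the window 5.74% and 2.67%. For the 16 pericentral genes with a start, the median log2 ratio was 0.43 at the start and 1.28 in the rest, and 3 and 10 genes were past 2-fold. Starts widely covered in liver had little room to rise: within 1 kb of the Glul start 1143 bases were covered in liver. For 14 periportal genes it was -0.37 and -0.89, and 0 and 6 genes were at least 2-fold less open. Cps1, Sds, Sdsl, Arg1 and Asl had no listed start, so the 14 lack most of the lowest ratios of the list. Egfr, the receptor for epidermal growth factor, is a case outside these lists: it was covered over 11.2% at day 64 and 25.9% in liver (-1.78), with a start at -0.17, and its RNA was lower in hbHep (1929, 807.7 and 2027 against 4834, 4637 and 5012). In the 300-base promoters, the median of covered bases was 223.5 at day 64 and 151.5 in liver for the pericentral list, and 226 and 208.5 for the periportal list.

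The genes of hepatocyte identity stood close to liver. None of 22 hepatocyte transcription factors was past 2-fold, with a median log2 ratio of -0.02 and a range from -0.65 (Klf15) to 0.75 (Atf5). In RNA 2 of them were higher and 9 lower, beside 20% higher and 17% lower of all 17958 genes tested. Of 26 plasma proteins made by hepatocytes, 1 was at least 2-fold less open, Serpina3k (-1.02), and the median was -0.01, while 17 had lower RNA and none higher. Alb had a log2 ratio of -0.15 and RNA 2.64-fold lower, at 74340, 55020 and 91580 in hbHep and 214500, 170900 and 187700 in FAH liver. As with Glul, the Alb window was too widely covered in liver to reach 2-fold upward. Of 27 genes counted of 29 for cytochromes P450 and drug metabolism, 3 were more open and none less, with a median of 0.32, beside 4 with higher and 19 with lower RNA. The bile acid list had 3 more open of 20, none less open and a median of 0.30, led by Akr1c6 (2.72). Akr1c6, a hydroxysteroid dehydrogenase, was covered over 45.1% and 4.34%, and its RNA did not pass the test (adjusted p = 0.898).

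Lists of proliferation and of YAP1 showed no gene past 2-fold in open chromatin. For the RNA counts of the lists here, 20% of all 17958 genes tested were higher in hbHep and 17% lower. The 21 mitosis genes counted of 24 had a median of -0.17 and a range from -0.47 to 0.63, although 23 of the 24 had higher RNA in hbHep. The 23 cholesterol synthesis genes had a median of -0.06 beside 17 with higher RNA. Of 25 YAP1 target genes 23 were counted, with a median of 0.03, from Igfbp3 at -0.84 to Myof at 0.67. In RNA, 13 of the 24 YAP1 target genes tested were higher in hbHep and 2 lower. The fetal liver and hepatoblastoma list had 14 of 22 counted, 2 of them more open: Afp, the fetal counterpart of albumin, at 1.5 and Igf2, a fetal growth factor, at 1.13. Afp RNA was 966.4, 19030 and 3571 in hbHep and 168.6, 120.9 and 135.6 in FAH liver, but technical libraries of 1 mouse differed 10.8-fold for Afp and 9.11-fold for Igf2. Medians were 0.11 for bile duct and progenitor genes (14 of 22 counted), 0.06 for male-biased and 0.21 for female-biased liver genes (20 and 14 counted of 20 each), -0.38 for immediate early and AP-1 genes (23), 0.08 for ribosomal protein genes (25), 0.01 for Hippo pathway components (20) and -0.11 for regulators of DNA methylation and chromatin (25). In these 7 lists the only genes past 2-fold were 1 more open and 1 less open among the male-biased genes, Slco1a1 (1.33) and Moxd1 (-1.03). In RNA, 10 of 20 bile duct and progenitor genes tested were higher in hbHep and 1 lower. Of 19 male-biased genes 2 were higher and 14 lower, and of 20 female-biased genes 9 and 3. For immediate early and AP-1 genes these were 12 and 4 of 22, and for ribosomal protein genes 0 and 3 of 25. They were 5 and 1 of 20 Hippo components and 7 and 1 of 25 chromatin regulators, whose higher counts lay near the share over all genes.

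Markers of other liver cells were mostly lower in scaled coverage at day 64. Of 21 endothelial markers, all counted, 20 had a ratio below 0, with a median of -0.42, and 2 were at least 2-fold less open, Clec4g (-1.42) and Flt4 (-1.27). Their summed scaled coverage was 43.9 at day 64 and 61.2 in liver, and in RNA 1 was higher and 2 lower in hbHep. Over all 17958 genes tested in RNA, 20% were higher and 17% lower. Of 21 macrophage and Kupffer cell markers 13 were counted, with a median of -0.81, and Clec4f, Mrc1 and C1qb were at least 2-fold less open. Of the 13, 10 had a ratio below 0 and 3 above, among them Cx3cr1 (0.86) and Cd68 (0.46). Clec4f, a lectin found on Kupffer cells, the resident macrophages of the liver, had 242 bases covered at day 64 and 1392 in liver (-2.43). Its RNA was 4811, 2460 and 1715 in hbHep and 2161, 1041 and 1330 in FAH liver (limma adjusted p = 0.0723). The summed scaled coverage of the 21 markers was 13.4 and 19.4, with Cd163 at 0 bases in both, while 15 of them had higher RNA in hbHep and 1 lower. For T, NK and B cell markers the sums were 13.1 and 15.4 (10 of 24 counted, median -0.23, 1 more open and 2 less open, 14 with higher RNA), for neutrophil markers 6.87 and 8.43 (4 of 14 counted, median -0.35), for stellate cell, fibroblast and matrix genes 15.3 and 16.8 (12 of 25 counted, median -0.22, 1 more open and 2 less open) and for red cell precursor genes 11.4 and 13.2 (9 of 15 counted, median -0.16). These lists moved with the comparison, and their part in the results above was not tested.

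**Figure D4:**
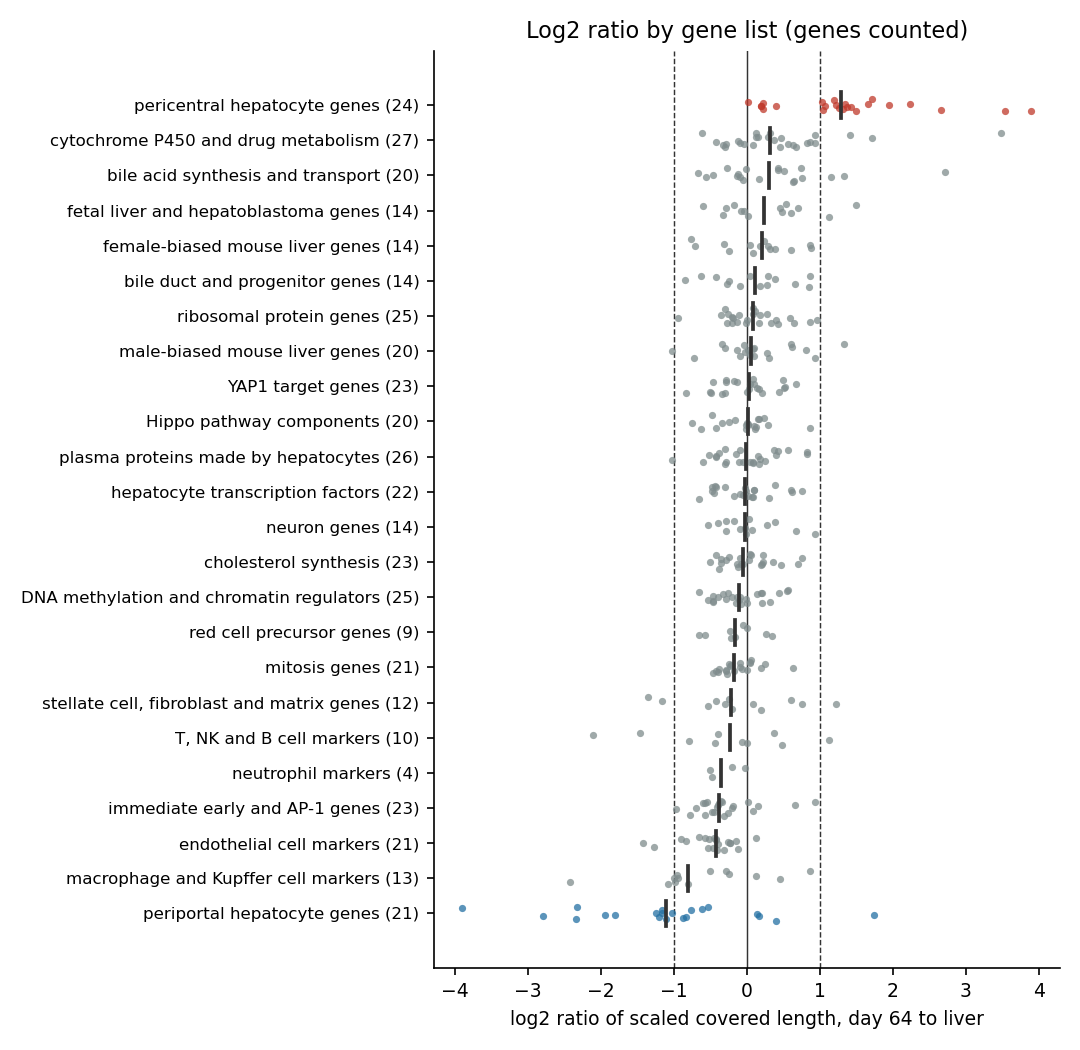
Points are the genes counted of each of 24 lists (number in brackets) at their log2 ratio of scaled covered length, day 64 to liver, with black bars at list medians and dashed lines at 2-fold. The list of pericentral and Wnt target genes (median 1.29) and the periportal list (median -1.11) stand at the ends, with the macrophage list (-0.81) next to the latter.

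Across all genes, open chromatin and RNA did not move together. Over 14269 genes with both measures the Spearman coefficient was -0.002 and Pearson's r 0.072, as a description of genes that are not independent. Shares apart from those of all genes were seen among the larger differences. Of 371 genes at least 2-fold more open, 41.8% had higher and 13.2% lower RNA, beside 20.9% and 19.4% of all 14269. Of 54 at least 4-fold more open, 30 had higher RNA and 3 lower. Of 247 at least 2-fold less open, 36.8% had higher RNA and 18.2% lower, so this group did not have less RNA. Of the 17 at least 4-fold less open, 2 had higher RNA and 6 lower. Read from the RNA side, the 188 genes with RNA at least 8-fold higher had a median log2 ratio of 0.44, and 24.5% of them were at least 2-fold more open beside 2.60% of all. The 103 genes with RNA at least 8-fold lower had a median of -0.14, and 7.77% were at least 2-fold less open beside 1.73% of all.

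Several genes were at opposite ends in the 2 readouts. Cyp3a11, a main drug-oxidizing cytochrome of mouse liver, was covered over 20.7% at day 64 and 0.990% in liver (log2 ratio 3.49), while its RNA was 125500, 76100 and 142200 in hbHep and 394700, 235100 and 251900 in FAH liver (log2 fold change -1.37, SE 0.39, limma adjusted p = 0.0122). Slc22a30, of the organic anion transporter family, was covered over 26.0% and 1.26% (3.65), and its RNA was 3892, 415.6 and 3993 against 12860, 10370 and 8243. Hsd3b2 (1.93), Akr1c14 (1.89), Ces1c (1.71) and Ugt2b5 (1.71), all enzymes of steroid or drug metabolism, also had lower RNA. The liver list covered 0.730 to 5.33% of these 6 windows, while the FAH livers expressed the genes. In the opposite corner stood genes with higher RNA and less open chromatin at day 64: Ikzf1 (-2.11), a factor of blood cells, Fbp2 (-2.02), Svep1 (-1.86), Ackr3 (-1.81), Lcp2 (-1.74) and Cmklr1 (-1.67). The Ikzf1 window had 222 bases covered at day 64 and 1033 in liver, and its RNA was 206.2, 107.9 and 123.6 in hbHep and 27.01, 26.00 and 49.54 in FAH liver. Except for Fbp2 (4.42% and 12.9%), all of these windows were covered under 3% in both libraries.

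**Figure D5:**
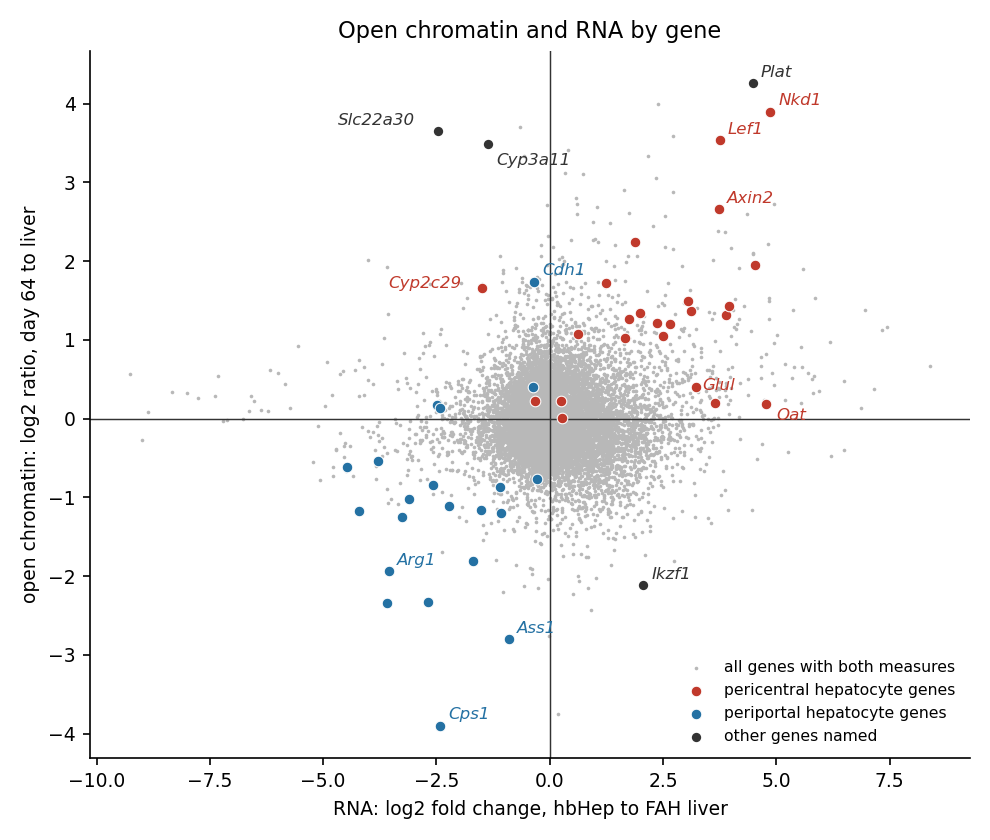
Each point is a gene with both measures, with the log2 fold change of RNA from FAH liver to hbHep (x) and the log2 ratio of open chromatin from liver to day 64 (y). The pericentral and Wnt target genes (red) and the periportal genes (blue) spread toward the upper right and lower left corners. The cloud as a whole shows no slope (Spearman coefficient -0.002).

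Levels of the 2 measures, which come from different samples, were related across genes. Over 16916 genes the share of the window covered at day 64 and the mean RNA abundance in hbHep had a Spearman coefficient of 0.48, and liver coverage and FAH liver abundance 0.47. The tenth of genes with the least RNA had a median of 1.16% covered at day 64, and the tenth with the most RNA 11.7%. For liver these were 0.935% and 7.41%, and the 100 most abundant genes had medians of 34.4% at day 64 and 19.2% in liver. Of those 100 genes in FAH liver, 5 were covered under 2% in the liver list, among them Cyp3a11 and Cyp2c29, which belong to families of near-identical neighbours. Of the 100 in hbHep, 4 were covered under 2% at day 64, among them Abcb11, the bile salt export pump.

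The largest ratios outside the lists were led by Plat, tissue plasminogen activator, which was covered over 12% at day 64 (5427 bases) and 0.168% in liver (76 bases), a log2 ratio of 4.26. Its RNA was 330.8, 1435 and 652.8 in hbHep and 35.90, 21.24 and 33.06 in FAH liver (log2 fold change 4.48, SE 0.37, limma adjusted p = 3.44e-07). Gm32280, a predicted gene with no RNA value here, was covered over 62.2% and 1.85% (4.17). It lies within the span of Zbtb16, looked at after these values were seen, whose own window was at 0.13 (35.3% and 21.5%) with RNA that did not pass the test (adjusted p = 0.144). Hcrtr2, a receptor for orexin peptides, was covered over 9.0% and 0.506% (3.33) with RNA 4.50-fold higher, and Klhl23 over 4.76% and 0.0807% (3.06). F2rl2, a thrombin receptor (3.42), Slc47a2 (3.33) and Cyp2c67 (3.70) were also among them, and the RNA of these 3 did not pass the test. At the low end, Tpte (-3.75), Tmem132e (-2.77), Epb41l3 (-2.23) and Itgb3 (-2.15) had at most 5345 covered bases in liver and RNA that did not pass the test. Kynu (-2.21), kynureninase of tryptophan breakdown, and Slc7a2 (-2.13), an arginine transporter, had lower RNA by 2.04-fold and 1.49-fold. Cth (-2.15), which makes cysteine, was covered over 8.66% and 26.4% and its RNA did not pass the test (adjusted p = 0.298). Slc38a4 (-1.79), an amino acid transporter, was covered over 17.8% and 41.5% with lower RNA (-1.18 on the log2 scale).

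Ctnnb1, Yap1 and Fah were followed as well. Ctnnb1, which encodes beta-catenin, was covered over 23.5% at day 64 and 5.85% in liver (log2 ratio 1.39), while the 1 kb on each side of its start was not more open (714 and 687 bases). It was at 1.40 at day 14 and 0.86 at day 33, and its RNA was 4954, 4446 and 4609 in hbHep and 2763, 2432 and 2561 in FAH liver (log2 fold change 0.85, SE 0.16, limma adjusted p = 0.000583). In 39 of its 48 bins some bases were covered at day 64, and in 19 in liver. Yap1 had a log2 ratio of 0.29 (6.14% and 3.34%) and RNA that did not pass the test (932.4, 1147 and 1310 against 1301, 1142 and 1353, adjusted p = 0.548). Fah had a ratio of 0.02 (11.6% and 7.66%), and its RNA was lower in hbHep (1152, 674.1 and 962.6 against 1825, 1574 and 1544, adjusted p = 0.0039). Its message was counted in both RNA groups, which both carry the exon 5 deletion.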

How the data were processed

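Open chromatin was taken from the authors' deposited interval lists (first 3 columns). The submitters' processing notes name the build mm10 and the tools bcl2fastq, cutadapt, BWA, SAMtools and Picard. How intervals were called, and whether read ends were shifted to the transposase cut, is not given in the sources used here; a wider or shifted interval would change covered bases. Interval widths ran up to 800 bases at day 64 with a median of 70, and 61 in liver. No read depth is in the lists, so depth is unknown. Intervals were merged within a list, and covered bases counted in each RefSeq gene (GRCm38.p6) and 10 kb on each side. The ratio and the filter are given with the results. Neighbouring windows overlap, so neighbours share bases. Sequences are from RefSeq's promoter table (GRCm38.p6), which held a start for 27025 genes.

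RNA values were deposited by the authors as a signal per gene, taken to be scaled reads per base. The submitters' processing notes name kallisto 0.45.0, sleuth and GRCm38.p6. Reads that match several transcripts are divided among them by kallisto's estimate, so single members of the Cyp2c, Cyp3a, Akr1c, Ces and Ugt families are uncertain. Each library was divided by a median-of-ratios factor (0.9585 to 1.095), and the result is called abundance. Technical libraries were averaged, which left 14 samples (3 hbHep, 3 FAH liver and 8 tumors, which only inform the spread). Genes with an abundance of at least 10 in at least 3 samples (17958 of 36555) were tested on log2(abundance + 1) with limma 3.58.1 (R 4.3.3; 4 groups in 1 model, trend, Benjamini-Hochberg threshold 0.05); fold changes are on this scale, which understates low genes. Of them 16916 matched a RefSeq gene and 14269 were also counted for open chromatin. The test was tried on simulated data. Where nothing says that samples came from separate cages or days, p-values measure only the spread between these mice and the 8 tumors. Titles of the tumors in each tumor group share 1 mouse code, so part of that spread may lie within an animal. A fit of hbHep and FAH liver alone is given below.

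Genes named are the 12 highest and 12 lowest ratios among protein-coding genes, those with RNA past 2-fold and the largest ratio in the same direction (8 each way) or the opposite (6 each way), the 2 highest and 2 lowest of each list, and Yap1, Ctnnb1, Fah, Afp, Alb, Glul and Hnf4a; all members of the pericentral and periportal lists may be named, of which 1 is not reported here. Wnt2, Wnt9b, Rspo3, Zbtb16, the printed sequences, the stretch before Glul and the bins of 7 genes were chosen after their values were seen. The members and lists were chosen with earlier results of these data known. Python 3.11.15 with pandas 2.3.3 and numpy 2.4.6 was used for intervals. The list with YAP1 on has another layout and was not used here.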

Additional observations from a re-analysis of the deposited data

Results flagged for a closer look

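Chromosome Y held 1.353% of the covered bases of the day 14 list, which the comparison of day 64 with liver does not use, beside 0.202% at day 33 and 0.283% both at day 64 and in liver. Labels give no sex for these mice. The day 14 values above come from this library.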

How the results depend on the processing

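The pericentral list kept a median log2 ratio of 0.80 to 1.48 and the periportal list of -1.32 to -0.67 over the 12 settings of window, scaling, pseudocount, filter and intervals, with 7 to 18 pericentral genes past 2-fold upward and 2 to 12 periportal genes downward. The counts of genes past 2-fold depended more on these choices. Against 830 more open and 488 less open genes, there were 1904 and 1128 in gene bodies alone, 373 and 208 with 50 kb on each side, 426 and 213 within 5 kb of start sites, 381 and 115 with a pseudocount of 0.5, 1803 and 862 with no filter on low values, 2306 and 2057 at 1.5-fold, and 1354 and 808 with intervals at least as wide as each list's median; the cause was not tested. The Spearman coefficient of open chromatin and RNA was -0.0444 within 5 kb of starts and 0.0193 with wide intervals, and the share of more open genes with higher RNA was 34.0% in gene bodies and 36.4% with wide intervals. Starts with an interval were 64.6% and 64.2% (day 64 and liver) within 500 bases and 61.5% and 60.3% with wide intervals. Shared regions were 45.1% and 74.3% where an overlap of at least 50% of the region was asked for, and 61.0% and 84.7% with wide intervals. RNA calls were 2387 higher and 1987 lower in a fit of hbHep and FAH liver alone, and 3159 to 3473 higher and 2218 to 2955 lower with each replicate left out in turn. With the replicate number as a block in that smaller fit there were 2482 and 2205, but the numbers do not pair these mice: same-numbered samples deviated together at r = 0.188, 0.073 and 0.019, and not every sample correlated best with its own number. Among values of single lists and genes, 435 were close to those reported and 28 moved, and none of a gene or list past 2-fold changed sign. Depth of the interval lists is unknown, and windows with few covered bases carry the least precise ratios.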

Other observations

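Genes of the Akr1c cluster on chromosome 13, which code for hydroxysteroid dehydrogenases, were looked at after Akr1c6 and Akr1c14 had stood out. The 4 others looked at had log2 ratios of 1.44 (Akr1c20), 1.28 (Akr1c13), 1.01 (Akr1c12) and 0.65 (Akr1c19). Their RNA did not follow one direction: it was higher in hbHep for Akr1c20 (log2 fold change 1.06, limma adjusted p = 0.00143) and lower for Akr1c13, Akr1c12 and Akr1c19 (-0.60, -0.60 and -1.47, adjusted p = 0.0297, 0.0192 and 0.00267). Of the Cyp3a genes, Cyp3a25 was covered over 48.1% at day 64 and 23.2% in liver (0.47), and Cyp3a13 over 6.47% and 3.94% (0.13), smaller ratios than the 3.49 of Cyp3a11. The others counted were Cyp3a16 (0.61), Cyp3a41b (0.58), Cyp3a44 (0.32), Cyp3a59 (0.29) and Cyp3a41a (0.24). RNA was lower in hbHep for Cyp3a13 and Cyp3a25 (log2 fold changes -1.2 and -0.66). It was higher for Cyp3a41b, Cyp3a41a, Cyp3a44 and Cyp3a16 (4.9, 3.98, 1.65 and 0.94), and did not pass the test for Cyp3a59 (-0.23). Of the Cyp2c genes of chromosome 19 looked at, those counted beside Cyp2c29 had log2 ratios of 3.70 (Cyp2c67), 2.90 (Cyp2c38), 2.45 (Cyp2c39), 0.93 (Cyp2c50), 0.62 (Cyp2c55), 0.51 (Cyp2c23) and -0.12 (Cyp2c70). RNA was higher in hbHep for Cyp2c38, Cyp2c39 and Cyp2c55 (log2 fold changes 1.64, 2.27 and 3.95), lower for Cyp2c50, Cyp2c23 and Cyp2c70 (-2.28, -1.93 and -1.02), and did not pass the test for Cyp2c67 (-0.65).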
